A study of Mus musculus with 4 samples.

Results

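Gnrh1 and 7 genes of the pituitary endocrine programme (Gnrhr, Cga, Fshb, Lhb, Tshb, Prl and Pou1f1) were examined in a Flag ChIP-seq peak list of the Isl1-Lhx3 fusion in mouse cells. A peak was taken as belonging to one of these genes where its maximum, on mm9, had that gene's transcription start as the nearest protein-coding start of GENCODE M1. The rule found 2 peaks of 2454 nuclear peaks in the list, 1 at Gnrh1 and 1 at Pou1f1. Gnrhr, Cga, Fshb, Lhb, Tshb and Prl had no assigned peak. Of all 22334 protein-coding genes that could receive one, 1826 (8.18%) had an assigned peak. Since the genes were chosen from the same list, the 2 of 8 with a peak were not tested against that share.

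The cells were iMN-ESCs, mouse embryonic stem cells of the A172LoxP line with a stably inserted, doxycycline (Dox) inducible gene for a Flag-tagged fusion of Isl1 and Lhx3. There were 2 libraries with Dox and 2 libraries without Dox, and all 4 came from cells that carry the transgene and from precipitation with a Flag antibody. In both groups, 2 days of retinoic acid (0.5 µM) on embryoid bodies were followed by 4 days of retinoic acid with Dox at 2 µg/mL or without Dox, and LIF for the last 16 hours. The sources do not say whether the line is 1 clone or whether the numbered libraries were separate cultures. The single list for all libraries gives a ChIP score, a background score and a tag count, with no value per library, so with Dox could not be compared with without Dox, the total depth is unknown and no spread between replicates can be given. Gene expression was not measured, and the label of the cells could not be checked against marker genes.

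The DNA-binding partners in the fusion, Isl1 and Lhx3, belong to the LIM-homeodomain family. They are best known for specifying motor neurons together, but both also act in the developing anterior pituitary, where Lhx3 is needed for most hormone-producing lineages. Homeodomains recognise short AT-rich cores built around ATTA (TAAT on the other strand). Gnrh1 encodes gonadotropin-releasing hormone, which hypothalamic neurons release to act on gonadotropes of the pituitary. Gnrhr encodes its receptor. Cga encodes the alpha subunit shared by the glycoprotein hormones, and Fshb, Lhb and Tshb encode the beta subunits of follicle-stimulating, luteinizing and thyroid-stimulating hormone. Prl encodes prolactin, and Pou1f1 (Pit-1) is the POU-homeodomain factor of the somatotrope, lactotrope and thyrotrope lineages.

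The sequences of the 2 assigned peaks are given first because the cores within them differ. Coordinates are 1-based on mm9, all are read on the plus strand, and capitals mark each ATTA or TAAT core. At Gnrh1 the maximum lay in the annotated 3′ untranslated exon of the neighbouring gene Kctd9, 23 bp before its end. Of that exon a 30-base stretch (chr14:68360310-68360339) is shown, which holds a TAAT and an ATTA facing each other with 2 bases between. The bases between that stretch and the end of Kctd9, which hold the maximum and a further ATTA core 3 to 6 bp after it, are not printed. The second stretch is the 227 bases from the end of Kctd9 to the end of the deposited window (chr14:68360368-68360594), which hold no core and therefore no capitals.
Gnrh1 peak, facing cores: gccgcgctctTAATggATTAggtttcttga
Gnrh1 peak, beyond Kctd9: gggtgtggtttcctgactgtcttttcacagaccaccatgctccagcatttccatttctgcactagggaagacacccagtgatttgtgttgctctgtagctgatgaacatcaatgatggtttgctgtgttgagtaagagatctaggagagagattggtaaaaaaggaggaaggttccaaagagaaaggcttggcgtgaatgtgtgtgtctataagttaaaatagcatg

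At Pou1f1 the 300 bases centred on the maximum (chr16:65454549-65454848) hold the palindromic core TAATTA and several single cores, some of which overlap.
Pou1f1 peak: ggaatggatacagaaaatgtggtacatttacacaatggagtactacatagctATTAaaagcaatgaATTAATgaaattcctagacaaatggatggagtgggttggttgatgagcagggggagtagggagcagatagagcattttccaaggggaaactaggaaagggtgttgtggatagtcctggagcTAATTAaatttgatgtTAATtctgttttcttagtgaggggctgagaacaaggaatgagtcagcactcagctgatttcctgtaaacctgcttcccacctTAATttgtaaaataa

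The Gnrh1 peak was among the strongest of the list. Its window (chr14:68360095-68360594) had a ChIP score of 266.04, rank 2 of 2454, against a median of 40.95 over all peaks and a highest score of 321.18. Its background score was 1.45, or 0.545% of the ChIP score, against a median of 0.722% over all peaks. No source names the library or libraries behind the background score, so it cannot be read as a value for the cells without Dox. Its region held 257 tags (227 to 290, 95% exact Poisson interval, counting error only), against a median of 30 tags per region. Only 2 of 2301 regions held more tags. These values placed the peak in the list's extreme end by both measures of strength.

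The Gnrh1 region was broad as well as strong. It spanned 2421 bp (chr14:68359652-68362072), against a median width of 467 bp, and 3 regions of 2301 were wider. It carried 1 maximum, 692 bp from its left end, so the region reached further towards Gnrh1 than away from it. Per length it held 106 tags per kb, against a median of 65.3 (quartiles 54.9 and 81.4) over all regions. Its density of tags thus stood less far above the list than its score did.

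The maximum lay 2.94 kb upstream of the annotated start of Gnrh1 (gene at chromosome 14, 68363286 to 68367492, plus strand). Among 318 peaks (13.0% of the list, 11.7 to 14.4) within 5 kb upstream of a protein-coding start, it had the highest score, and the next had 167.55. Among 43 peaks with the maximum in an untranslated exon (1.75%, 1.27 to 2.35), it was also the highest, and the next had 153.63. These ranks describe a peak that was chosen with its score known.

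Neighbouring genes frame the assignment. Kctd9, a gene of the BTB-domain KCTD family on the same strand, ended 2.92 kb before the Gnrh1 start, and the nearest protein-coding start other than that of Gnrh1 belonged to a shorter Kctd9 transcript, 8.09 kb from the maximum. On the other side Dock5, a Dock-family exchange factor gene on the minus strand, ended 6.70 kb downstream of the Gnrh1 start. Within 1 Mb of that start there were 2 further peaks, both in introns of Dock5, at 143 and 163 kb with ChIP scores of 30.78 and 38.54. The list does not show which of these genes, if any, responds to the fusion.

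**Figure D1:**
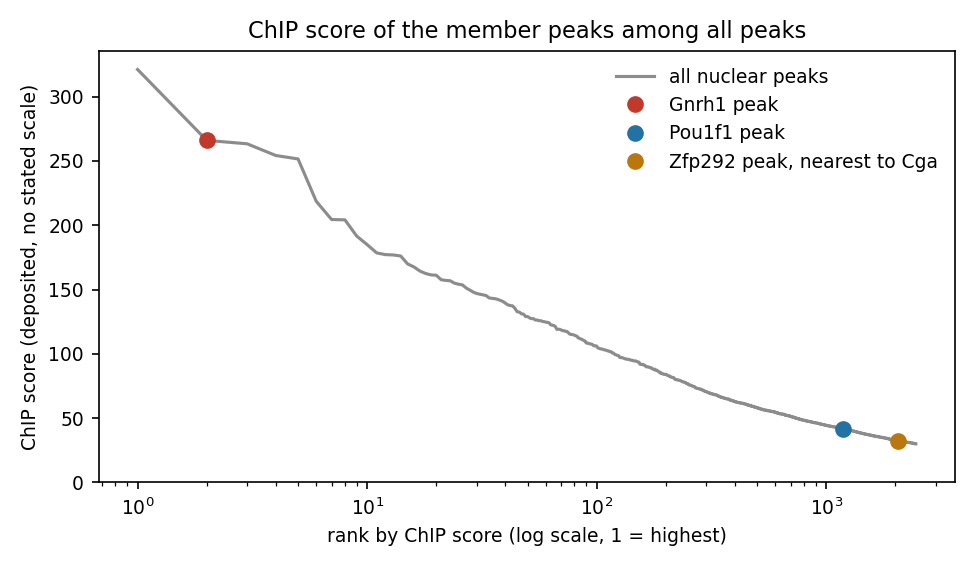
ChIP score (deposited, no stated scale) of all 2454 nuclear peaks as a line against rank on a log scale, with the Gnrh1 peak, the Pou1f1 peak and the Zfp292 peak nearest to Cga as points. The Gnrh1 peak sits at rank 2 with 266.04, while the Pou1f1 peak (41.49) and the Zfp292 peak (32.39) lie in the flat part of the curve.

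The peaks closest to Gnrh1 in ChIP score came from genes of varied function. The only peak above it (321.18, 55.14 higher) was assigned to the predicted gene Gm10132 and lay in an intron of Enox1. Just below were peaks in introns of Wwp2, a ubiquitin ligase gene (263.37, a difference of -2.67), Ankrd55 (254.27, -11.77) and Accn2, which encodes an acid-sensing ion channel (251.59, -14.45). Likeness here is the difference in score within the 1 list and says nothing of the genes themselves. The Gm10132 region was also wide, at 2794 bp, whereas those of Wwp2, Ankrd55 and Accn2 were 863, 814 and 1149 bp. Neither the facing pair of cores nor TAATTA was found in the 200 bp around any of these 4 maxima.

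Pou1f1 had a peak of ordinary ChIP score and few tags far from its start. The window (chr16:65454450-65454949, intergenic) had a ChIP score of 41.49, against the median of 40.95 over all peaks, and a background score of 0. Its 19 tags (11.4 to 29.7) were below the median of 30 per region and gave it rank 2039 of 2454 peaks by tags. The score was shared by 20 peaks, of which the highest rank was 1181. A background score of 0 was common, at 762 of 2454 peaks (31.1%, 29.2 to 32.9). Its region was narrow, at 244 bp, and 112 of 2301 regions were narrower. The maximum lay 66.1 kb upstream of the Pou1f1 start (gene at chromosome 16, 65520847 to 65535250, plus strand), a distance class of 50 to 100 kb that held 341 peaks (13.9%, 12.6 to 15.3). The next protein-coding start, that of Chmp2b, was 108 kb away. Among all annotated genes the start of AC118240.1, an annotated miRNA gene, was nearer, at 22.2 kb, so Pou1f1 holds this peak only under the protein-coding rule. Compared with Gnrh1, the Pou1f1 peak had a lower score and fewer tags, counted over a narrower region. Per length the Pou1f1 region held 77.9 tags per kb, against 106 at Gnrh1 and a median of 65.3 over all regions. These differences were not tested.

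**Figure D2:**
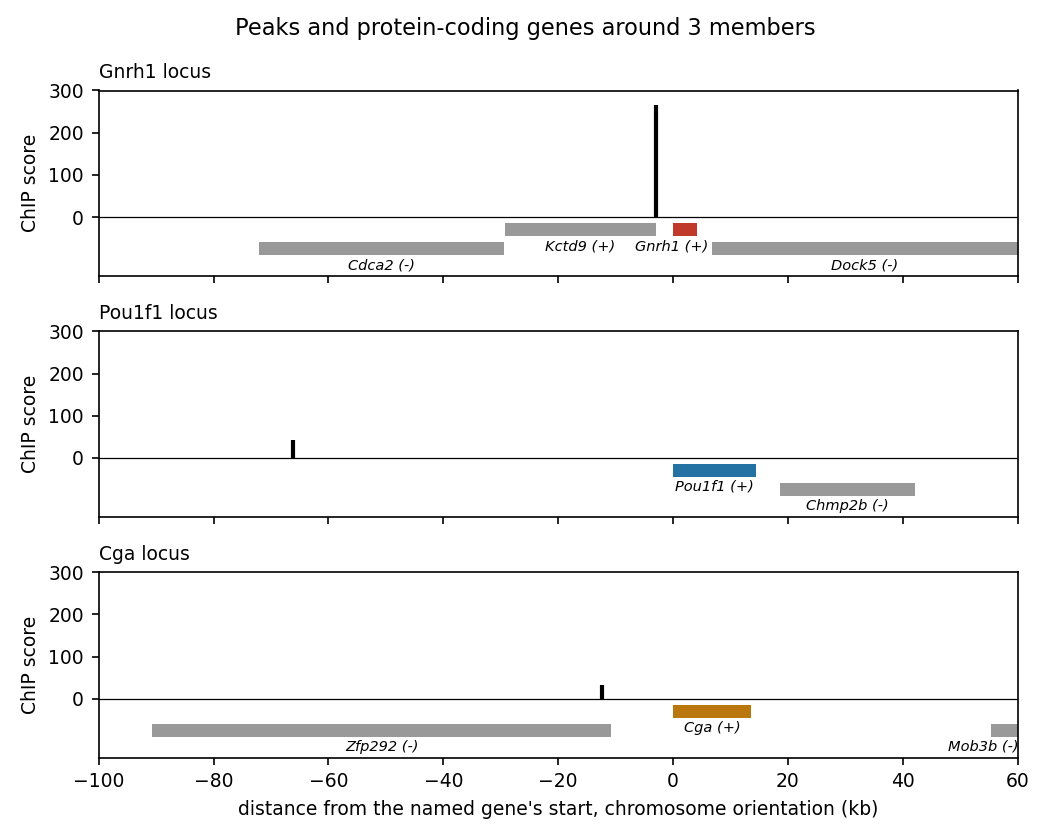
Peaks (vertical lines, height is the deposited ChIP score) and protein-coding genes (bars, strand in brackets) from 100 kb before to 60 kb after the starts of Gnrh1, Pou1f1 and Cga, on an axis of distance from the start in kb. Each span holds 1 peak, at the end of Kctd9 for Gnrh1 (266.04), in a stretch free of protein-coding genes for Pou1f1 (41.49) and inside Zfp292 for Cga (32.39).

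The homeodomain cores in the printed peaks were set against those of the whole list, in 200 bp centred on each maximum and on either strand. At Gnrh1 there were 3 ATTA cores, where 52.0% of all peaks had at least as many, and no TAATTA, which 34.3% of peaks held (32.4 to 36.2). The facing pair, TAAT and ATTA with 2 bases between, covered 24 to 15 bp before the maximum. It occurred in 76 of 2454 peaks (3.10%, 2.45 to 3.86) and in 28 of 4908 stretches of 200 bp centred 1 kb to each side of the maxima (0.57%, 0.379 to 0.823), a contrast over the list that was not tested. This spacing was looked at because it lay at the Gnrh1 maximum, so the Gnrh1 peak lends no support to it. Cores that the Gnrh1 peak lacks were also more frequent at the maxima than in the stretches to each side. TAATTA was in 842 of 2454 peaks and 319 of 4908 stretches. ATTA followed by TAAT with 3 bases between was in 121 of 2454 peaks and 31 of 4908 stretches. The contrast was therefore not particular to the facing pair. Peaks with the pair had a median score of 42.955, against 40.95 in peaks without it, and the interquartile ranges (35.13 to 59.02 with the pair, 34.26 to 53.80 without) overlapped. Of the 76 peaks with the pair, that of Gnrh1 had the highest score, followed by the one assigned to Gm815 with 140.78.

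The facing pair at Gnrh1 also contains TAATCC, read on the minus strand, the core bound by bicoid-type factors such as the pituitary Pitx proteins. TAATCC was in 8.88% of all peaks (7.79 to 10.1), close to the 9.60% of the flanking stretches. At Pou1f1 the 200 bp held 6 ATTA cores, a number reached by 7.95% of peaks, and 1 TAATTA, 37 to 42 bp after the maximum. TAATTA was also in 1 of the flanking stretches of the Pou1f1 peak and in 1 of those of the Gnrh1 peak. The octamer ATGCAAAT bound by POU factors, the E-box CAGCTG and the relaxed STAT site TTCNNNGAA were not in the 200 bp of either peak, and over the list they were in 4.24%, 13.9% and 5.01% of peaks. An E-box lay just outside that window at Pou1f1, 103 to 108 bp after the maximum and within the 300 bases printed above, and 29.1% of peaks had one in 500 bp. GC content over the same 200 bp was 47.0% at Gnrh1 and 41.5% at Pou1f1, against a median of 48.0% over all peaks.

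**Figure D3:**
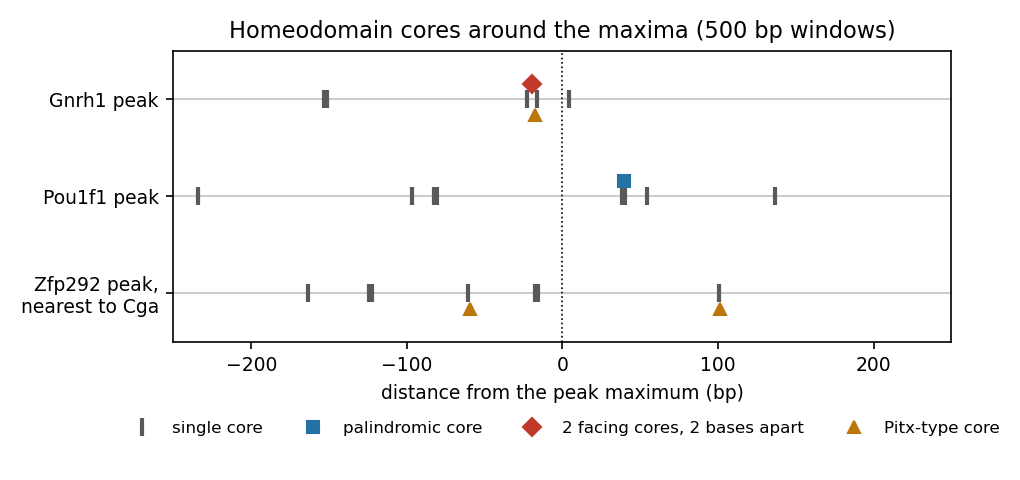
Positions of homeodomain cores, in bp from the maximum, in 500 bp of the Gnrh1 peak, the Pou1f1 peak and the Zfp292 peak nearest to Cga. Ticks are single ATTA cores, the square is TAATTA, the diamond is the facing pair and triangles are TAATCC. The facing pair of the Gnrh1 peak lies 24 to 15 bp before its maximum, and the TAATTA of the Pou1f1 peak lies 37 to 42 bp after its maximum.

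Cga had a nearby peak that the rule gave to another gene. The peak (chr4:34828362-34828861) lay 12.4 kb upstream of the Cga start (gene at chromosome 4, 34841028 to 34854619, plus strand) in an intron of Zfp292, a zinc-finger gene on the opposite strand, whose own start was 1.57 kb away. Of all protein-coding genes, 4.25% had a peak nearer to a start than Cga had. The peak was weak by ChIP score, at 32.39 (rank 2061), with a background score of 0.29. Its 29 tags (19.4 to 41.6) were near the median of 30 per region. It held 3 ATTA cores in 200 bp, 1 of them within a TAATCC, and no TAATTA. The 200 bases centred on its maximum (chr4:34828511-34828710, plus strand, single cores in capitals) are given for comparison with the Gnrh1 and Pou1f1 peaks.
Zfp292 peak nearest to Cga: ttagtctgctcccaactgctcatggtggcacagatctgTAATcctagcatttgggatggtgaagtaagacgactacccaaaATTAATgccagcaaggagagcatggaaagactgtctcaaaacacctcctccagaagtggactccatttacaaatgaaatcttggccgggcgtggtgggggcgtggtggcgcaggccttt

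The remaining genes had no peak in their surroundings or one that stood closer to another start. For the hormone beta subunits, the nearest peaks lay 230 kb from Fshb (chromosome 2, 106896297 to 106899813), in an intron of Mpped2 with a score of 32.12, 338 kb from Lhb (chromosome 7, 52673723 to 52677224), near Nosip with 31.05, and 422 kb from Tshb (chromosome 3, 102581321 to 102586637), near Bcas2 with 60.49. These distances fell inside the middle range of all protein-coding genes, whose nearest peak was 344 kb away at the median (quartiles 126 and 842 kb). Gnrhr (chromosome 5, 86609779 to 86626926) and Prl (chromosome 13, 27149439 to 27157073) were far from any listed peak, at 2398 and 4996 kb. Of all protein-coding genes, 94.4% had a nearer peak than Gnrhr, and 99.1% a nearer one than Prl. Within 1 Mb of their starts Gnrhr and Prl had 0 peaks, Fshb 1, Pou1f1 2, Gnrh1, Cga and Tshb 3 each and Lhb 4, against a median of 2 over all genes (quartiles 1 and 4). A gene without a listed peak may still be bound below the unstated threshold of the list.

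**Figure D4:**
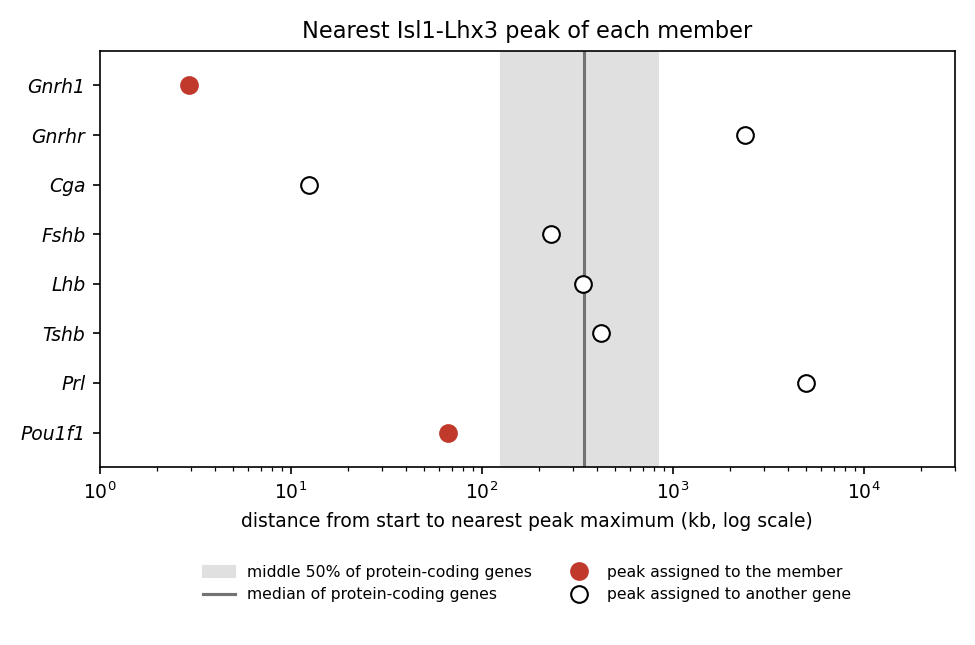
Distance in kb (log axis) from the start of each of the 8 genes to the nearest peak maximum, filled where that peak was assigned to the gene and open where it was assigned to another. Gnrh1, Cga and Pou1f1 lie left of the grey band that marks the middle 50% of protein-coding genes (126 to 842 kb), Fshb, Lhb and Tshb lie within it, and Gnrhr and Prl lie right of it.

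How far a gene's start stood from those of its neighbours decided which peaks it could receive. The territory, the sequence nearer to a gene's starts than to any other protein-coding start, was 99.7 kb for Gnrh1 and 229 kb for Pou1f1. It was 58.3 kb for Gnrhr, 135 kb for Cga, 158 kb for Fshb, 11.7 kb for Lhb, 49.3 kb for Tshb and 162 kb for Prl, against a median of 45.6 kb. Lhb was the only one of the 8 genes with less than the median territory, and 10.9% of genes had a smaller one. Pou1f1, with the largest territory of the 8, exceeded 88.3% of genes.

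Promoter sequence was examined in the same genes, because sites for LIM-homeodomain factors are known in the promoters of some of them, such as Cga and Prl. RefSeq promoters (GRCm38.p6, 250 bases before to 50 after the start) were held for 7 of the 8 genes, with 2 starts for Pou1f1, and each matched mm9 exactly at 1 place. Gnrh1 was not among them. TAATTA was in the promoters of Cga, 128 to 123 bases before the start, and of Prl, 192 to 187 bases before it, and in 4.53% (4.25 to 4.82) of 21262 promoters of protein-coding genes. The sequences upstream of these starts are shown because they hold the core while the nearest listed peaks were 12.4 kb (Cga) and 4996 kb (Prl) away. They are the 250 bases before the Cga start (chr4:34840778-34841027) and before the Prl start (chr13:27149189-27149438), plus strand, with TAATTA in capitals.
Cga promoter: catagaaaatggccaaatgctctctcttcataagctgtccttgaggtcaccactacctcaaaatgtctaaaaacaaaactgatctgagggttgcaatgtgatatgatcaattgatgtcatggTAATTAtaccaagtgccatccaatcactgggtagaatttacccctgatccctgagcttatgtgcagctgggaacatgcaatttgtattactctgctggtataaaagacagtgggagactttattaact
Prl promoter: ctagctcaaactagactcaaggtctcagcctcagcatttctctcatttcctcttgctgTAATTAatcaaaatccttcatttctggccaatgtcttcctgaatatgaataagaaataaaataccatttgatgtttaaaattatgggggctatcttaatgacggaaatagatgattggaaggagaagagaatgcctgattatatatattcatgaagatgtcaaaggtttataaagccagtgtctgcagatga

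Single cores varied among the promoters. The Tshb promoter held 10 ATTA cores, a number reached by 0.433% of promoters, that of Prl 6 (3.53%), that of Cga 4 (9.7%) and that of Gnrhr 3 (16.6%). The promoters of Fshb, Lhb and Pou1f1 held 1 each, a number that 51.8% of promoters reached. GC content ran from 32.0% at Tshb to 56.7% at Lhb, and its part in these counts was not tested. In the wider span of 1000 bases before to 200 after the start, Cga held 5 TAATTA cores, from 977 bases before to 186 bases after its start. Of 69963 protein-coding transcript starts, many of which share sequence, 0.0729% held as many. Pou1f1 held 2 there, at its downstream RefSeq start, and Fshb, Tshb and Prl 1 each, whereas 21.0% of starts held at least 1. None of these promoters carried a listed peak, and a core in the sequence is a match of letters, not a site of binding.

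Wider lists of the hypothalamic and pituitary programme were counted by the same rule. They leave out the 8 genes, so Gnrh1 is not counted among the peptides and Pou1f1 not among the transcription factors. Among pituitary transcription factors, 8 of 24 had a peak (33.3%, 15.6 to 55.3), against 8.18% of all protein-coding genes. This contrast was not tested. The rule sets no limit of distance, and the territories of these 24 genes are not given here. Lhx3 had 2 peaks, the stronger with a score of 162.46 at 8.07 kb from its start. For both peaks Gm13553 had a nearer start among all annotated genes. Hesx1, a homeobox repressor of early pituitary development, had 3, the strongest with 148.01 at 5.70 kb. Its window overlapped that of the Hesx1 peak with 95.02 at 5.86 kb, and both carry the same count of 178 tags. Sox2, a progenitor factor, had 5, the strongest with 84.04 at 17.9 kb, to which Sox2ot had a nearer start. The other Sox2 peaks scored 30.78 to 37.47, below the median of 40.95 over all peaks, and the farthest lay 504 kb from the start. Isl1 had 2, both in coding exons, with 61.56 at 7.996 kb and 39.61 at 6.44 kb. Neither held an ATTA core in the 200 bp, whereas 94.2% of all peaks held at least 1. Isl1 coding sequence is also part of the transgene, whose share of those tags was not tested. Otx2, Msx1, Tbx19 and Nr5a1, whose products act at different stages of pituitary differentiation, had 1 peak each. The strongest peaks of these 8 genes had a median score of 61.29, below the 266.04 of Gnrh1 and above the 41.49 of Pou1f1.

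Secreted factors and receptors were counted beside the same 8.18% of all protein-coding genes, and their shares were not tested against it. Of 18 hypothalamic peptides and pituitary hormones, 2 had an assigned peak (11.1%, 1.38 to 34.7): Inhba, the activin subunit gene, with 55.40, and Adcyap1, which encodes the neuropeptide PACAP, with 36.40. Those peaks lay 821 and 114 kb from the starts. Of 17 hormone receptor genes, among them Ghrhr, Trhr, Kiss1r and Drd2, 0 had a peak, which allows up to 19.5% by the exact interval. Among 19 genes of GnRH neuron development there were 4 (21.1%, 6.05 to 45.6): Fgfr1 (63.97), Otx2 (61.02), Sema3a (51.92) and Nos1 (35.33). Their peaks lay 31.6 to 121 kb before the nearest annotated transcript start of the gene. That of Sema3a was nonetheless inside the gene, in an intron of Sema3a, and that of Nos1 was in an intron of Ksr2. Gnrh1, at 2.94 kb, was nearer to its peak than any of these 4. The lists were chosen with earlier results of these data known and are described by their counts alone.

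Close peaks were then counted alone. Gnrh1 was the only one of the 8 genes with an assigned peak within 10 kb, which 3.09% of protein-coding genes had. In the wider lists 5 of 76 genes had one (6.58%): Lhx3, Hesx1, Sox2, Isl1 and Msx1. All of them came from the list of pituitary transcription factors, and Lhx3 and Isl1 are the partners in the fusion itself. Both Isl1 peaks lay in coding exons, with the limit on transgene sequence given above. The 13 genes of the wider lists with a peak held 21 peaks, of which 7 had TAATTA and 0 had the facing pair seen at Gnrh1. Over all peaks 34.3% had TAATTA and 3.10% the pair, so counts of this size are near those shares and set these peaks apart in neither respect.

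**Figure D5:**
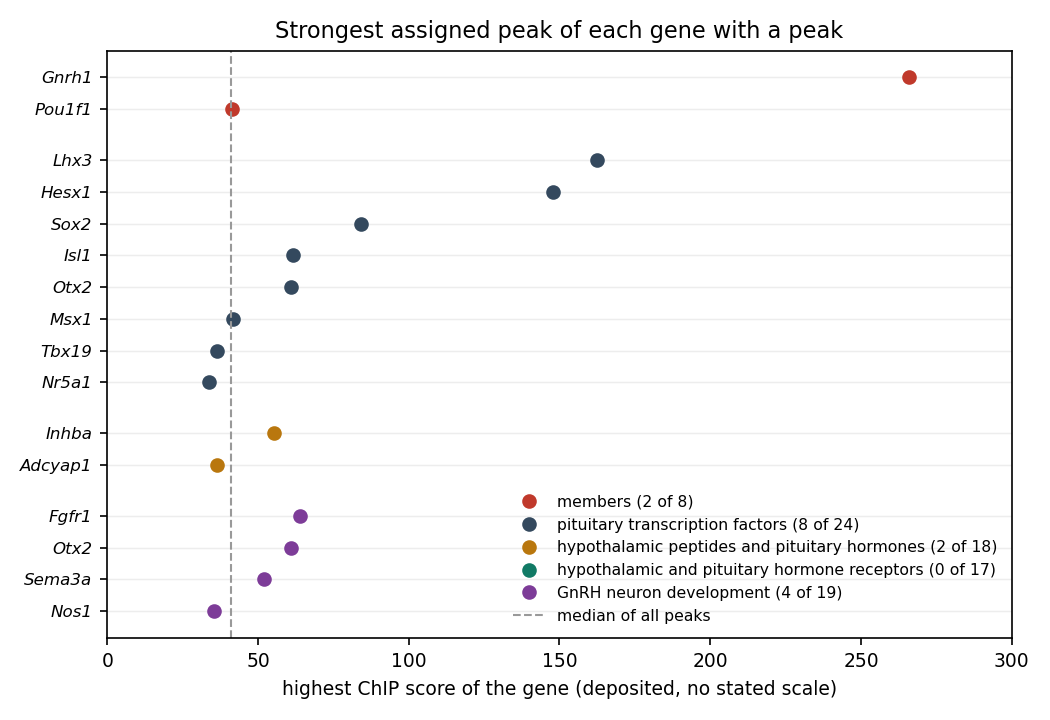
Highest deposited ChIP score among the assigned peaks of each gene with a peak, for the 8 genes and for 4 wider lists, with the counts of genes in brackets and the median of all peaks (40.95) as a dashed line. Gnrh1 (266.04) stands right of every gene of the wider lists, of which Lhx3 (162.46) and Hesx1 (148.01) come next, and the receptor list has no point.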

How the data were processed

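Flag ChIP-seq of 4 libraries was analysed from 1 peak list. Per the submitters' processing notes, BWA 0.5.8a and the build mm9 were used. No source used here names the peak caller, its threshold or any pooling. The file holds values the authors deposited: a ChIP score and a background score per peak, with no stated scale, and a count of tags per region, named per the file headers. Of 2455 peaks, 1 on the mitochondrial genome was left out. The reference is NCBIM37, the same build as mm9, with GENCODE M1.

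Every transcript start of a protein-coding gene was used for assignment. Motifs were searched on both strands in 200 bp centred on the maximum (Python 3.11.15, pandas 2.3.3, pysam 0.24.0). The motif search and the assignment to the nearest start were tested on simulated data, and the other steps were not. Intervals of shares are 95% exact binomial (Clopper-Pearson), and they and the Poisson intervals cover counting error only. No test was made, because 1 list gives no replicate values. The genes and the lists were chosen with earlier results of these data known. Of the wider lists, 75 of 76 genes matched by symbol and 1 by an older symbol. Named are the 8 genes, the listed genes with a peak (values for at most 4 per list), hosts and neighbours of peaks, and the genes of the 3 peaks next above and below that of Gnrh1 by score, of which only 1 lay above. Gm815 was named after its value was seen. Alternatives changed the genes that can receive a peak, the peaks, the distance, the measure of strength and the windows.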

Additional observations from a re-analysis of the deposited data

How the results depend on the processing

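Of 27 alternative values, 19 stayed within 1.5 times of the reported one. The 8 that did not were counts. With all annotated genes able to receive a peak, 1 of the 8 genes had one (Pou1f1 lost its peak), as did 5 of 24 pituitary transcription factors, 0 of 18 peptides and hormones and 2 of 19 genes of GnRH neuron development. The pituitary factors left without a peak there were Lhx3, Otx2 and Tbx19. With peaks within 10 kb, 1 of the 8 genes had a peak. Peptides and hormones had 1 with the 1239 highest-scoring peaks, ties at the limit included and 0 with peaks within 100 kb. TAATTA was in the promoters of 5 of 7 genes with the longer span, against 2 with the shorter. The causes follow from the construction: nearer noncoding starts, fewer peaks and longer sequence. The rank of the Gnrh1 peak was 3 of 2301 regions by tags and 2 by score less background or with 1 peak per region. With 1 start per gene, chosen after the data were seen, 2 of 8 genes had a peak. Without Isl1, also chosen then, 7 of 23 pituitary factors had one. No paired analysis was possible because the list gives no value per library, and for the same reason no library could be left out. The unstated threshold limits what the absence of a peak shows.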
